A study of Mus musculus with 12 samples.

Results

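The comparison of dorsomorphin (DM) with control in oocytes from primordial follicles of the mouse ovary used 6 of the 12 RNA sequencing libraries of the study, chosen by their sample labels: 3 labelled as oocytes from primordial follicles given DM, and 3 labelled as the same oocytes given a sham treatment. The methods of the study describe the sham group as ovaries cultured with DMSO, the solvent of DM, and it is called control here. All 6 libraries came from C57Bl/6j x CBA/J females aged 7 to 8 days whose ovaries, per the methods, were cultured for 5 days with DM or DMSO in medium with serum and follicle-stimulating hormone, which both groups received. The labels describe the material as in vivo. DM was used at 5 to 10 µM in the study, and the dose behind these libraries is not given in the sources used here. Each library pooled 200 oocytes cut out of stained, fixed and paraffin-embedded sections by laser capture microdissection, after which the RNA was amplified. A library is therefore a pool over cells, and the sources used here do not tie it to an animal.

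A primordial follicle holds a dormant oocyte arrested in meiosis, wrapped in flattened pregranulosa cells. Dormancy is known to end when PI3K and mTOR signalling in the oocyte and its granulosa cells rises, and oocyte transcription factors such as NOBOX and FIGLA then carry early growth. DM inhibits AMPK, a kinase that senses low energy and restrains mTOR, and it also inhibits the type I receptors of bone morphogenetic proteins (BMPs), which signal through SMAD proteins.

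The 6 libraries held 15119439 to 38225872 counts. Of 55401 genes in the table, 16334 had a count in any of the 6, and 1956 had at least 10 counts in all of them. A count of 0 allowed up to 3 counts, or 0.0785 to 0.198 CPM (the counts relative to the total of the library), and this limit covers counting error only, since amplified reads without molecular identifiers are not independent molecules. Genes with at least 10 counts numbered 6229, 5971 and 3939 in the DM libraries and 9333, 5952 and 5432 in controls (5380 ± 1250 against 6906 ± 2120, SD, n = 3 each, exact two-sided permutation p = 0.6, smallest possible 0.1). Across genes, libraries correlated at a Spearman rho of 0.44 to 0.49 within a group (6 pairs) and 0.41 to 0.48 between groups (9 pairs). Levels of the same gene in libraries of 1 group often differed by orders of magnitude, and the biological coefficient of variation was 1.76. Genes with over 100000 counts in 1 library and few elsewhere were also counted in the other 11 libraries of the study at a median of 0.01405% of that height (6 genes), and whether other small counts were such carry-over was not tested gene by gene.

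Across the 6699 genes tested, the quasi-likelihood test of edgeR, adjusted by Benjamini and Hochberg, called 1 gene, *Pms2*, or 0.0149%. The median log2 fold change was 0.13 and its median standard error 2.84. At an unadjusted p under 0.05, 166 genes (2.48%) were higher and 325 (4.85%) lower with DM. The 3 DM libraries lay wholly above the 3 controls for 255 genes (3.81%) and wholly below them for 587 (8.76%) in CPM normalised by TMM, edgeR's scaling between libraries. This split moved with the scaling: by library size alone, 138 genes lay above and 736 below. DESeq2 in place of edgeR called 665 of 6011 genes (11.1%), 232 higher (3.86%) and 433 lower (7.2%). Both an unadjusted p under 0.05 in edgeR and no overlap, the criteria of most genes named below, were met by 51 genes higher (0.761%) and 261 lower (3.9%) with DM. Of the 42 genes chosen by the rule for named genes, 15 higher and 27 lower with DM, *Pms2* alone passed the adjusted edgeR test, and "higher" and "lower" describe the positions of the libraries. For 17 of the 42, all counts of the lower group were under 0.1% of the highest count of the gene in the study.

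*Pms2*, which encodes a mismatch repair protein, had 18, 144569 and 11 counts in the DM libraries and 169, 18 and 8 in controls. A single DM library was high and the other libraries of both groups overlapped. Its log2 fold change was 10.52 (SE 2.18, adjusted p = 0.00938, edgeR), and without DM replicate 2 it was -1.0. Reads on *Pms2* may be shared with *Rsph10b* and *Gm42421*, which overlap it on the same strand.

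**Figure D1:**
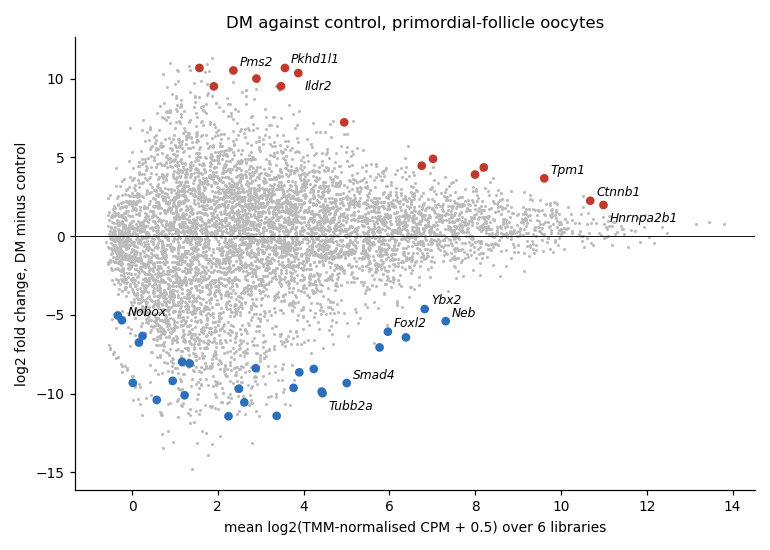
Each point is a gene tested in the 6 libraries, with its mean level on the log2 scale on the x axis and the log2 fold change (DM minus control) on the y axis. Named genes are red where higher and blue where lower with DM, and the cloud of all genes is wide at low levels, around a median of 0.13.

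A wide separation was that of *Tubb2a*, which encodes a beta-tubulin, a building block of microtubules, and lies at chr13:34074274-34078007 (mm10) on the minus strand. The DM libraries held 15, 25 and 4 counts of *Tubb2a* and the controls 17528, 20851 and 11482. All 3 DM libraries were lower than the 3 controls by a wide margin. Its log2 fold change was -9.98 (SE 3.26, adjusted p = 0.46, edgeR), and -10.56 to -9.63 with any library omitted. A gene chosen because its groups do not overlap can hardly change direction in this way. The adjusted p of *Tubb2a* ranged from 3.94e-05, with DESeq2, to 0.999 over the alternatives. The counts in the DM libraries were at most 0.0544% of the highest count of the gene in the study. Beta-tubulin genes resemble each other, and how reads with several matches were counted is not given in the sources used here.

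The oocytes from primary follicles, 6 libraries that share no sample with these, showed the same separation for *Tubb2a*, with 8, 9 and 15 counts where DM was given against 20142, 6229 and 45930 in controls. All 6 DM libraries were thus below all 6 controls. The methods describe oocytes of both stages cut from cultured ovaries. Whether the same ovaries gave both stages is not stated there, so the stages may not be independent. In the labels all DM libraries are numbered before all controls, so library order and treatment cannot be told apart. Over the 3838 genes tested in both stages, the 6 DM libraries lay wholly apart from the 6 controls for 28 genes (0.73%), 17 lower (0.443%) and 11 higher (0.287%) with DM. By library size alone these counts were 35 and 0, and 15 of the 17 lower genes but 0 of the 11 higher genes were apart on both scales. The 11 higher genes include *Rnu3a* under separate identifiers at the same locus, with the same counts in every library.

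Among those 15 was *Neb*, which encodes the giant actin-binding protein nebulin. It had 6486, 88 and 58 counts with DM and 58947, 187221 and 19969 in controls of primordial follicles. In primary follicles it had 59, 126 and 2665 against 15408, 7004 and 347725. *Cpeb3*, whose product binds the tails of messenger RNAs and controls their translation, had 10, 10 and 2 counts against 1751, 24625 and 2514, and in primary follicles 7, 14 and 7 against 7888, 1154 and 30097. No DM library of either stage was above 14 counts of *Cpeb3*, and no control was below 1154. *Dysf*, which encodes the membrane repair protein dysferlin, had 0, 0 and 1 counts against 1167, 147 and 6882, and *Cpox*, an enzyme of haem synthesis, had 0, 2 and 0 against 353, 14 and 138. *Nfyc*, a subunit of the CCAAT-binding factor NF-Y, had 16, 153 and 9 against 6960, 3368 and 6847. Others of the 15 were *Glul*, *Camsap1*, *Pank2*, *Dmap1*, *Hmgxb4*, *Tln2*, *Dnajc9* and *Zfp36l2*, of which *Camsap1* encodes a protein of microtubule ends. *Neb* and *Tubb2a* were chosen by the rule for named genes, and the other genes of this paragraph after their values were seen. In primary follicles alone, edgeR called 0 of 4181 genes at an adjusted p under 0.05, and 508 (12.2%) at an unadjusted p under 0.05.

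**Figure D2:**
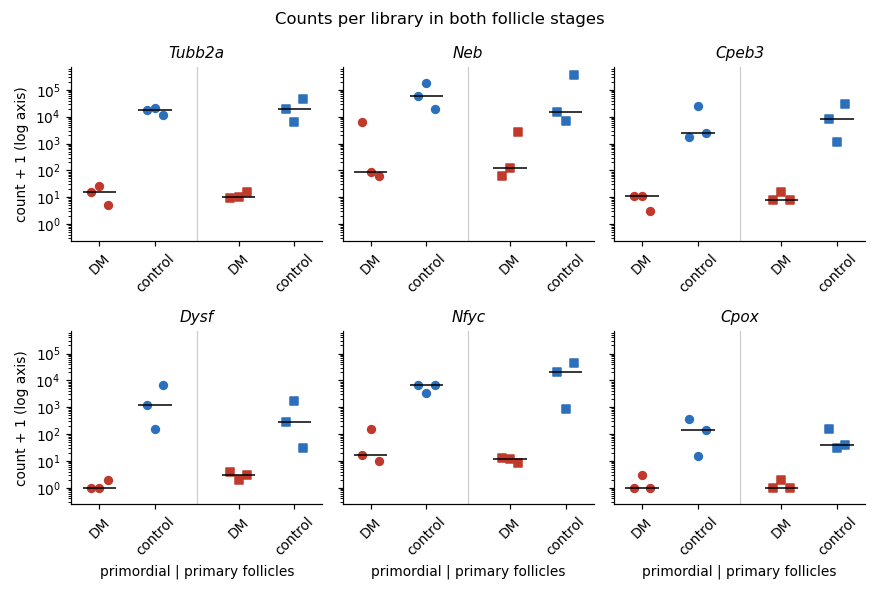
Counts plus 1 per library on a log axis for *Tubb2a*, *Neb*, *Cpeb3*, *Dysf*, *Nfyc* and *Cpox*, with DM in red, control in blue, circles for primordial and squares for primary follicles, and a bar at the median of each 3 libraries. In every panel the 6 DM libraries lie below the 6 controls of both stages.

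The identity of the captured cells was read from markers of the oocyte and its neighbours. Oocyte markers were uneven between libraries of both groups: *Ddx4*, a germ cell helicase, had 15, 19082 and 50 counts with DM and 2643, 26640 and 11 in controls. *Kit*, the receptor by which the oocyte reads signals of its granulosa cells, had 621, 17965 and 91 against 10382, 10635 and 54. The summed CPM of 10 oocyte markers was 64.9, 1070 and 16.7 with DM and 478, 1150 and 22 in controls, so that DM replicate 3 and control replicate 3 were both low. Of the 10 markers, 4, 5 and 3 had at least 10 counts in the DM libraries and 10, 7 and 9 in controls. *Sohlh1*, a helix-loop-helix factor of primordial oocytes, was at 0 in every DM library and had 23, 7 and 10 counts in controls, too few to pass the filter on low counts. *Figla* was nearly absent from both groups, with 0, 29 and 0 counts against 10, 0 and 3.

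Markers of other ovarian cells were also counted. *Foxl2*, a transcription factor that defines granulosa cells, had 97, 656 and 61 counts with DM and 40701, 39034 and 4197 in controls, a log2 fold change of -6.07 (SE 2.54, adjusted p = 0.644, edgeR). All 3 controls were above all 3 DM libraries. *Foxl2os* overlaps it on the opposite strand, and whether the counting used strand is not given in the sources used here. The summed CPM of 5 granulosa markers was 38.7, 164 and 3.56 with DM and 1620, 1440 and 279 in controls, where most of it was *Foxl2*, while *Fshr* was at 0 in all 6 libraries and *Amh*, *Kitl* and *Inha* each overlapped between the groups. Fewer granulosa cells in the cut-outs and less RNA per such cell cannot be told apart in pooled samples. *Nr5a2*, another granulosa factor, had 5, 27 and 3 counts against 5866, 3345 and 90, whereas *Inha* overlapped between the groups with 30, 4906 and 8 against 13426, 14345 and 6. Of 11 granulosa genes tested, 5 had a log2 fold change above 0 and 6 below, with a median of -0.27 (-0.47 by library size alone). Of these 11, 1 was higher and 2 lower in every DM library, where 3.81% of all genes were higher and 8.76% lower.

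Stroma was present in all libraries, and its summed markers did not separate the groups. Its 5 markers summed to 1480, 2630 and 2740 CPM with DM and 2820, 2760 and 2480 in controls, most of it from the collagen genes *Col1a1* and *Col1a2*. The stroma marker *Dcn* had 7349, 420 and 794 counts with DM and 516, 12 and 5 in controls. It was higher in every DM library in TMM-normalised CPM but not in raw counts. Its log2 fold change was 5.06 (SE 3.55, adjusted p = 0.714, edgeR). Of 8 stroma and theca genes tested, 1 was higher in every DM library, where 3.81% of all genes were. The surface epithelium, marked by *Krt19* and *Upk3b*, summed to 1510, 3.01 and 709 CPM with DM and 206, 0.998 and 3.04 in controls, and DM replicates 1 and 3 were high. Smooth muscle, marked by *Acta2* and *Myh11*, summed to 525, 216 and 0.475 CPM against 195, 0.27 and 0.132. Of the endothelial markers *Kdr* had 692, 21234 and 4 counts against 298, 3 and 1, while *Pecam1* had at most 1 count in any library. The leucocyte marker *Ptprc* and the red blood cell markers *Hba-a1* and *Hbb-bs* were at 0 in all 6 libraries, but *Lyz2*, a myeloid gene, had 0, 2853 and 0 counts with DM and 102, 0 and 0 in controls. The part of these neighbouring cells in the gene differences below was not tested.

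**Figure D3:**
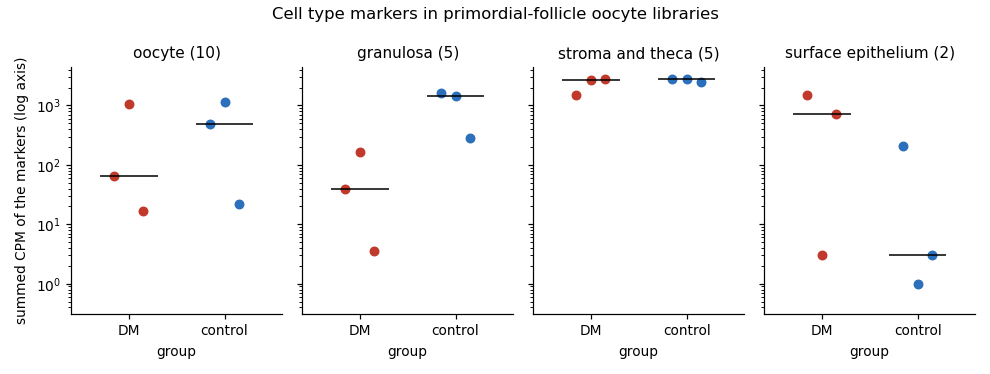
Summed CPM on a log axis of the markers of 4 cell types in the 3 DM (red) and 3 control (blue) libraries, with a bar at the median and the number of markers in each title. The granulosa sum, in which *Foxl2* alone separates the groups, lies higher in every control (279 to 1620 CPM) than in any DM library (3.56 to 164 CPM), while the other 3 types overlap.

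Of the transcription factors and signalling genes of primordial oocytes, 13 were listed, 12 had a count and 6 were tested, 3 above and 3 below 0. The tested member that separated the groups was *Nobox*, a homeobox factor that the oocyte needs to leave dormancy, with 2, 0 and 0 counts in the DM libraries against 36, 24 and 28 in controls. All controls were higher, at low counts. Pooled over libraries *Nobox* was 46-fold lower in CPM with DM (95% exact interval from counting error alone 12.4 to 386). *Ybx2*, whose product binds and stores messenger RNAs in oocytes, had 1001, 2680 and 15 counts with DM and 20900, 37404 and 26039 in controls. The controls were all above the DM libraries, and the log2 fold change of *Ybx2* was -4.63 (SE 2.03, adjusted p = 0.658, edgeR). *Foxo3*, a guardian of dormancy, overlapped with 127, 24621 and 58 counts against 29882, 1779 and 4260.

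The promoters of *Nobox* and *Ybx2* are shown because both germ line genes were lower in every DM library. They are from RefSeq (GRCm38.p6) and run from 250 bases before to 50 after a start site, 5′ to 3′ on the strand of the gene. *Nobox* lies at chr6:43309505-43309804 on the minus strand and the first of the *Ybx2* starts at chr11:69935649-69935948 on the plus strand. Capitals mark letters of the form CANNTG, the E-box read by helix-loop-helix factors, searched on both strands.
Nobox: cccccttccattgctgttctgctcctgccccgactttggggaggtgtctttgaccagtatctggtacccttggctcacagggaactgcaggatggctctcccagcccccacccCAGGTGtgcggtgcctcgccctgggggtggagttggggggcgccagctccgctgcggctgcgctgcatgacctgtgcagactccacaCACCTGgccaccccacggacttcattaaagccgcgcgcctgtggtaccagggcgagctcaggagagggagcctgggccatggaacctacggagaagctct
Ybx2: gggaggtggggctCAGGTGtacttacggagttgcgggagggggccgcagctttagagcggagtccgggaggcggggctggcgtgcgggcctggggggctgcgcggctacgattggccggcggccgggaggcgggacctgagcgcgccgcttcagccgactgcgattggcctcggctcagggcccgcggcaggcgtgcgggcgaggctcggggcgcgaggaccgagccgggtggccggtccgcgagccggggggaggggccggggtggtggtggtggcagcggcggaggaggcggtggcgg
The window of *Nobox* held 2 such matches and that of *Ybx2* held 1, and 72.3% of 32851 RefSeq promoters of this length hold at least 1. The homeobox letters TAATTA were searched in the same way. They occur in 5.29% of these promoters and in neither window. The forkhead letters GTAAACA, held by 3.65% of promoters, were also in neither window.

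Other tested genes of germ line RNA control lay mostly to the same side. Of 18 listed, which include the piRNA pathway that silences transposons, 11 were tested and 10 of these had a log2 fold change below 0, with a median of -2.78, where 52.0% of all genes tested were above 0. None passed the adjusted test, and *Ybx2*, *Tdrd1* and *Tdrd5* were lower in every DM library (3 of 11, against 8.76% of all genes). *Cpeb1*, a regulator of stored messenger RNAs, had 1125, 2937 and 9 counts against 6225, 16614 and 5416, and *Lsm14b* 3104, 25545 and 18 against 24893, 64265 and 5195. *Mael*, a piRNA factor, overlapped more, with 313, 3 and 4 counts against 3800, 2128 and 1. Members that did not pass the filter went both ways. *Asz1* had 842, 20 and 0 counts against 0, 0 and 0 (adjusted p = 0.01, DESeq2), and *Patl2* 0, 445 and 0 against 0, 0 and 0. *Dnd1* had 3, 1 and 0 against 4, 1 and 5951. Genes of growing oocytes were scarce. *Zp2*, an egg coat protein, had 5, 2 and 1 counts against 30, 89 and 40, and 8 of the 20 listed genes were tested, with a median log2 fold change of -1.08.

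Genes of meiosis were few, and 4 of 21 were tested. *Mlh3*, which encodes a mismatch repair protein that acts at crossovers, had 4, 1 and 0 counts against 12, 18 and 273. *Smc1b*, the meiotic cohesin subunit that holds sister chromatids together, had 49, 5 and 1 counts against 4293, 2655 and 886. *Ythdc2* overlapped between the groups. The list of DNA damage response and repair held 20 tested genes, with 1 higher and 3 lower in every DM library, near the shares of all genes (3.81% higher and 8.76% lower). *Xrcc6*, which encodes the end-joining protein KU70, had 2, 130 and 3 counts against 3417, 2467 and 3836. *Msh6* went the other way with 2452, 301 and 1635 counts against 222, 2 and 13.

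Cell cycle regulators were split. Of 23 tested, 16 had a log2 fold change above 0 and 7 below, with a median of 1.92 (1.19 by library size alone). The groups did not overlap for 3 genes, all lower with DM, against 8.76% of all genes. *Cdk7*, the kinase that activates other cyclin-dependent kinases and starts RNA polymerase II, was at 0 in all 3 DM libraries and at 723, 102 and 30 counts in controls, at least 298-fold lower against a floor of 3 counts over the DM group. Primary-follicle oocytes had 7, 2 and 3 counts of *Cdk7* with DM and 381, 5 and 5569 in controls. *Mnat1*, a subunit of the same kinase complex, had 1, 2 and 1 counts against 20, 70 and 160 in primordial follicles. *Cdc25a*, a phosphatase that releases cell cycle kinases, had 2, 0 and 0 counts against 1531, 15 and 919. *Cdk1*, the kinase of meiotic and mitotic entry, had 0, 4 and 0 against 51, 24 and 182, and *Birc5*, the chromosomal passenger survivin, 2, 0 and 0 against 17, 39 and 16. *Cdk2* was high in 2 DM libraries, with 2, 4437 and 7680 counts against 30, 1 and 5, and the groups overlapped.

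The BMP list, whose type I receptors DM is known to inhibit, held 21 genes. *Smad4*, the common partner of the SMADs of BMP and TGF-beta signalling, had 42, 33 and 27 counts with DM and 21679, 69783 and 4399 in controls. Each DM library was far below each control. The log2 fold change of *Smad4* was -9.33 (SE 2.66, adjusted p = 0.412, edgeR), and -9.75 to -7.69 when any library was omitted. The counts in the DM libraries were at most 0.0282% of the highest count of the gene in the study. Whether they were carry-over between libraries was not tested. In primary-follicle oocytes the groups overlapped, with 24716, 41 and 149078 counts against 14942, 15115 and 38, and the test of whether the DM effect differed by stage gave an adjusted p of 0.0974 (edgeR over 12 libraries). The BMP receptor genes *Bmpr1a* (10303, 8576 and 11 against 6062, 7621 and 3378) and *Bmpr2* (36941, 95 and 3083 against 11120, 30663 and 13) overlapped. *Id2*, a BMP target, had 3, 3 and 1 counts against 2297, 2451 and 2 and did not pass the filter on low counts. Of 6 genes tested in this list 5 had a log2 fold change above 0, with a median of 0.79 (0.52 by library size alone).

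Downstream of AMPK, *Rheb*, the small GTPase that switches on mTOR complex 1, had 9, 1 and 2 counts with DM and 3301, 9908 and 140 in controls. *Eif4ebp2*, a translation repressor that mTOR inactivates, had 25, 39 and 1 against 712, 2359 and 1181. The controls of both genes lay above all DM libraries. *Mtor* itself overlapped, with 7265, 37793 and 9365 counts against 7888, 15233 and 14, and the 18 mTOR genes tested were 9 above and 9 below 0. Of these 18, 1 was higher and 2 lower in every DM library, near the shares of all genes (3.81% higher and 8.76% lower). Genes of AMPK and its upstream kinases gave 7 tested and 0 with an unadjusted p under 0.05, where 7.33% of all genes had one. Of these 7 genes, 1 was higher and 1 lower in every DM library. Of the genes of the PI3K and AKT pathway 20 were tested, also 0 with an unadjusted p under 0.05.

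In the Wnt list *Ctnnb1*, which encodes beta-catenin, was the member that stood apart with an unadjusted p under 0.05. Its TMM-normalised levels were 6800, 4460 and 2420 CPM with DM and 1760, 922 and 163 in controls, a log2 fold change of 2.25 (SE 0.94, adjusted p = 0.644, edgeR), and by library size alone its groups overlapped. *Ulk4* overlaps *Ctnnb1* on the opposite strand. The 17 genes of this list tested were 9 above and 8 below 0. In the Hippo list *Stk4*, the kinase at the head of the pathway, had 38, 4 and 1 counts against 821, 2426 and 5414, and 11 genes tested had a median log2 fold change of -1.69.

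**Figure D4:**
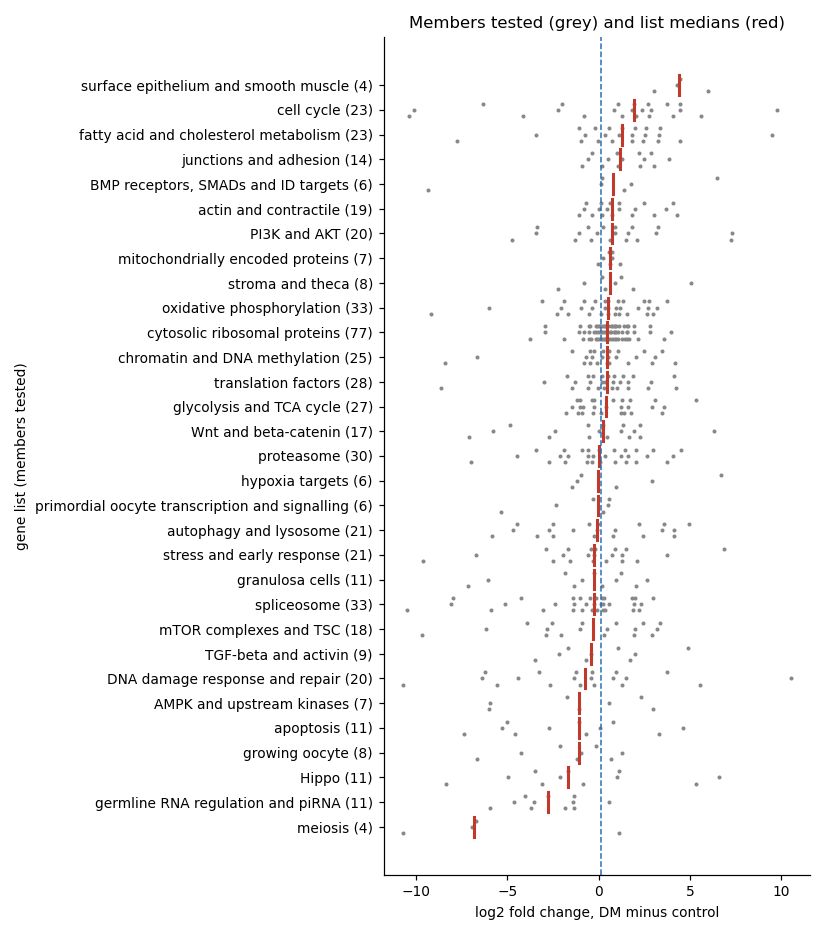
Log2 fold changes (DM minus control) of the tested members (grey) of each gene list with 4 or more members tested, the list medians (red) and the median of all tested genes (dashed, 0.13). Members of most lists lie on both sides of 0, and medians run from -6.85 for meiosis to 4.39 for surface epithelium and smooth muscle.

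Several genes higher with DM had under 100 counts in every control. *Pkhd1l1*, which encodes a large membrane protein, had 4025, 3705 and 9610 counts with DM and 24, 4 and 1 in controls. All 3 DM libraries were above each control. Its log2 fold change was 10.68 (SE 3.92, adjusted p = 0.475, edgeR), between 9.30 and 11.59 with each library left out, and its adjusted p ranged from 3.61e-07, with DESeq2, to 0.999 over the alternatives. *Ildr2*, another membrane protein gene, had 45642, 58 and 25319 counts against 44, 19 and 17, and *Sox6*, a transcription factor gene, 515, 39 and 39399 against 34, 38 and 16. In both genes DM replicate 2 was near the controls. *Tiparp*, which encodes a poly-ADP-ribose polymerase induced by the dioxin receptor, had 1598, 55493 and 130 against 87, 39 and 5. *Angel2* rested on DM replicate 2, with 39, 25436 and 16 counts against 8, 6 and 4.

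Another set was well counted in at least 1 control as well. *Hnrnpa2b1*, a splicing and RNA transport protein, was at 4100, 3720 and 4840 TMM-normalised CPM with DM and 904, 1640 and 646 in controls. The groups did not overlap, and the log2 fold change was 1.98 (SE 0.95, adjusted p = 0.658, edgeR). *Tpm1*, a tropomyosin that coats actin filaments, was at 3650, 1930 and 7340 CPM against 695, 282 and 21.7. *Nfat5*, a transcription factor of osmotic stress, was at 1410, 4000 and 489 against 171, 98.3 and 13.3 in primordial follicles. In primary follicles *Nfat5* lay apart in the opposite direction, with 3949, 65 and 6835 counts with DM and 19481, 3604 and 44895 in controls, and its interaction had an adjusted p of 0.236 (edgeR). The transcription factor genes *Bnc2* (485, 6550 and 626 against 215, 289 and 1.72) and *Glis2* (177, 3280 and 1170 against 137, 4.2 and 10.2) and the splicing factor gene *Cdc40* (70.5, 187 and 3530 against 23.9, 0.21 and 0.554) complete this set in TMM-normalised CPM, each with 1 DM library well above the other 2. By library size alone the groups of *Glis2*, *Scd1* and *Ctnnb1* overlapped, and the other 11 of 14 named genes that lay higher with DM remained apart.

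Of 23 genes of fatty acid and cholesterol metabolism tested, 16 had a log2 fold change above 0 and 7 below, with a median of 1.26 (0.58 by library size alone), and 3 were higher and 2 lower in every DM library, against 3.81% and 8.76% of all genes. *Hmgcs1*, the enzyme that commits acetyl units to sterol synthesis, was at 239, 1270 and 1120 TMM-normalised CPM with DM and 69.8, 0.929 and 45.8 in controls. *Scd1*, the desaturase that makes monounsaturated fatty acids, had 2510, 6023 and 5 counts against 17, 4 and 0, with DM replicate 3 near the controls. *Acaca*, the acetyl-CoA carboxylase that AMPK inactivates by phosphorylation, had 8470, 6129 and 15256 counts against 11855, 833 and 972, higher in every DM library in TMM-normalised CPM but not in raw counts. On the lower side, *Insig1*, a brake on sterol synthesis, had 1, 44 and 2 counts against 156, 11701 and 472.

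Of 77 cytosolic ribosomal protein genes, all tested, 57 had a log2 fold change above 0 and 20 below, with a median of 0.46. In TMM-normalised CPM 13 were higher and 1 lower in every DM library (3.81% and 8.76% of all genes lay so). *Rpl34*, apart in raw counts as well, had 53778, 51031 and 28703 counts with DM and 20569, 19366 and 18222 in controls. By library size alone the median of 0.46 was -0.14, below 0, and each ribosomal median lay above that of all genes. The summed CPM of the 77 genes overlapped between the groups, with 47700, 47100 and 65200 against 47000, 44400 and 61100. Of 14 genes of junctions and adhesion tested, 11 were above 0, and *Ctnna1*, *Ctnnd1*, *Itgb1* and *Col4a2* were higher in every DM library (3.81% of all genes). Of 19 actin and contractile genes tested 15 were above 0, with a median of 0.74 (0.20 by library size alone). *Actb* had 751442, 337252 and 366476 counts against 695725, 428464 and 184465.

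In RNA and protein production, single members stood apart on both sides. *Eif2b1*, a subunit of the exchange factor that recycles the initiator complex of translation, had 5, 58 and 4 counts with DM and 3263, 21422 and 4864 in controls. *Snrpa*, a protein of the U1 particle of the spliceosome, had 5, 2 and 0 against 368, 151 and 828, and *Sf3b4*, of the U2 particle, 1, 3 and 4 against 400, 13 and 1554. Of 33 spliceosome genes tested, 4 were lower and 1, *Hnrnpa2b1*, higher in every DM library. Of 28 translation factor genes 2 were lower (*Eif2b1* and the cap-binding *Eif4e*) and 2 higher (*Eif4g2* and *Pabpc1*). Both lists were near the shares of all genes, 8.76% lower and 3.81% higher. *Atp5j*, a subunit of the ATP synthase, had 4, 0 and 0 counts against 272, 2354 and 10, where its list of 33 oxidative phosphorylation genes had a median of 0.52, and about 0 by library size alone. *Gabpa* overlaps *Atp5j* on the opposite strand.

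In chromatin and redox control, *Ezh1*, a methyltransferase of Polycomb repressive complex 2, had 20, 49 and 7 counts with DM and 8307, 16156 and 5700 in controls. Primary-follicle oocytes had 15, 88446 and 2726 counts of *Ezh1* against 1439, 140 and 14, and its test of a difference by stage gave an adjusted p of 0.0974 (edgeR), which it shared with *Smad4*. *Eed*, another subunit of that complex, had 3, 2 and 52 counts against 6324, 379 and 4344. *Gclm*, a subunit of the enzyme that limits glutathione synthesis, had 8, 6 and 9 counts against 6669, 16376 and 3929, a log2 fold change of -9.63 (SE 3.84, adjusted p = 0.605, edgeR), and it overlaps *Gm6061* and *Gm17494*. *Cat*, the peroxide-degrading catalase, had 75, 88 and 21 against 1003, 22152 and 225, and *Gclc*, the catalytic partner of GCLM, overlapped with 13, 45890 and 15 against 596, 68 and 57. Of 25 chromatin and DNA methylation genes tested, 15 had a log2 fold change above 0 and 10 below, with a median of 0.44 (-0.33 by library size alone). Of these 25, 1 was higher and 2 lower in every DM library. Of 21 stress and early response genes tested, 1 was higher and 3 lower in every DM library. Over all genes these shares were 3.81% higher and 8.76% lower.

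The named genes that were lower without belonging to a list were a mixed group. *Max*, the partner of MYC proteins, had 2659, 31 and 25 counts with DM and 9806, 116112 and 45417 in controls, and *Ptpn2*, a tyrosine phosphatase of cytokine signalling, 34, 34 and 5 against 3503, 56498 and 9300. *Zfp644*, a zinc finger gene, had 203, 231 and 173 counts against 23542, 101343 and 664. *Tbc1d8b* had 3, 8 and 0 counts against 2944, 28301 and 2493. *Gba2*, a glucosylceramidase gene, rested mainly on control replicate 2, with 4, 3 and 3 counts against 1750, 38459 and 17, and so did *Hist1h2bk*, a histone gene with near-identical copies, with 9, 10 and 5 against 4437, 45560 and 11. *Tm2d3* was at 0 in every DM library and had 23, 187 and 20 counts in controls, at least 80.2-fold lower against the floor of 3 counts over the DM group. Among these genes *Zfp644* overlaps *Gm28039* and *Tm2d3* overlaps *Tarsl2* on the same strand, and *Gba2* overlaps *Creb3* and *Rgp1* on the opposite strand. With DM replicate 1 left out, *Max* and *Neb* joined *Pms2* as genes with an adjusted p under 0.05 in edgeR.

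**Figure D5:**
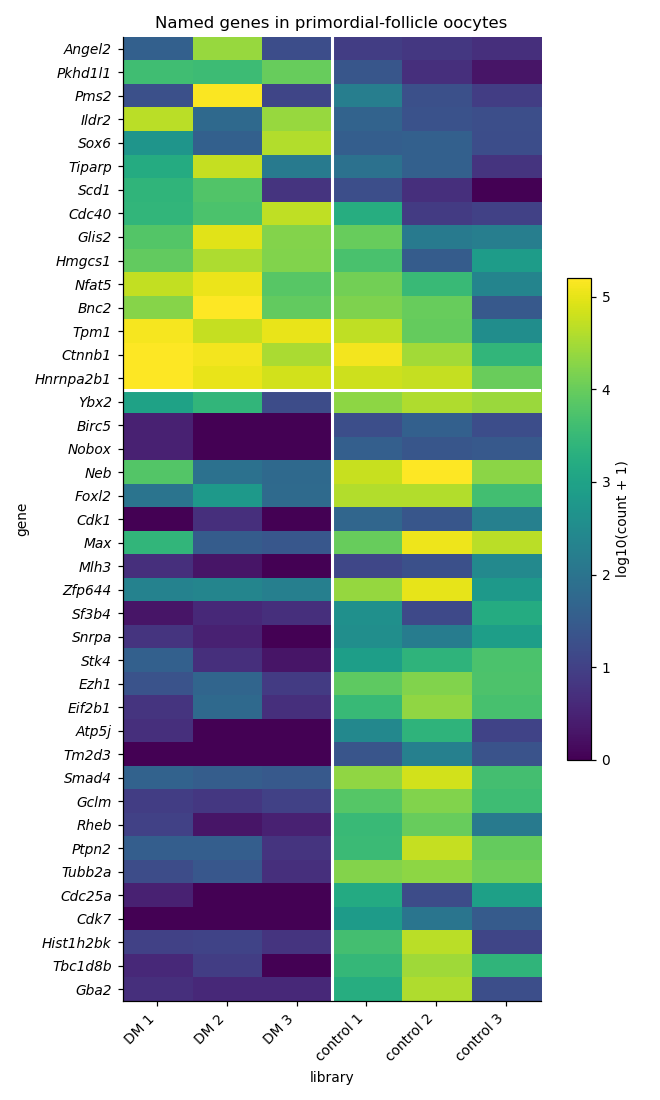
Heat map of log10(count + 1) of named genes (lines of the map) in the 3 DM and 3 control libraries (columns), ordered by log2 fold change, with white lines between the groups and between the higher and lower genes. Most lower genes are dark in the DM columns, while *Angel2*, *Sox6* and *Tiparp* are brightest in a single DM column.

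Detection was compared without use of heights. At least 10 counts in every control and at most 3 in every DM library were found for 89 genes (0.545% of 16334), of which 82 were protein coding and 32 were at 0 in all DM libraries. The reverse was found for 4 genes (0.0245%). The controls also held the library with most detected genes, control replicate 1, and when any library was omitted these counts ranged from 128 to 339 for genes on in controls and 5 to 58 for genes on with DM. With a minimum of 50 counts they were 26 and 2.

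Some of the 89 genes were well covered in all controls. *Zmat2*, a spliceosome protein gene, had 1, 0 and 0 counts with DM and 2011, 6319 and 2623 in controls, and *Dnajb9*, a chaperone of the endoplasmic reticulum, 3, 0 and 2 against 1526, 12142 and 1805. Glycogen enzymes were among them: *Pygl*, a glycogen phosphorylase, had 1, 1 and 1 counts against 1346, 692 and 879, and *Pgm1*, phosphoglucomutase, 1, 3 and 0 against 3787, 2565 and 1982. *Crat*, carnitine acetyltransferase, was at 0 in every DM library and at 307, 607 and 2348 in controls, at least 1140-fold lower against the floor of 3 counts over the DM group. In primary-follicle oocytes 5 of the 89 genes had at least 10 counts in every control, and 3 of the 89 met the whole rule. The 4 genes detected with DM alone were *Ifih1*, a sensor of viral RNA (6683, 15 and 1284 against 2, 2 and 0), *Cybrd1*, an iron reductase (84, 63 and 93 against 2, 3 and 0), *Cgrrf1* (893, 191 and 876 against 2, 0 and 0) and *Gm12940* (28, 3618 and 19 against 3, 0 and 0). Genes of these 2 paragraphs outside the rule for named genes were chosen after their values were seen.

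Levels per exon length were compared for the most abundant genes. *Actb* stood at 19200 ± 7590 TPM, counts per exon length scaled to the same sum in each library, with DM and 16500 ± 6030 in controls (SD, n = 3 each), and *Rpl32* at 10300 ± 5590 and 8630 ± 2100. *Snord15b*, a small nucleolar RNA with the highest mean over the 6 libraries, stood at 34600 ± 12400 and 25600 ± 13100. In each of these 3 genes the means lay closer together than the larger SD. *mt-Rnr2*, the large mitochondrial ribosomal RNA, stood at 12200, 10500 and 5950 with DM and 5590, 5210 and 5720 in controls (9540 ± 3220 against 5500 ± 266), with every DM library above every control on this scale. Relative to library totals the groups overlapped. All mitochondrial genes together held 0.537%, 0.544% and 0.315% of counts with DM and 0.264%, 0.277% and 0.33% in controls. *Snord22* stood at 10700 ± 2210 against 7150 ± 1280, and its lowest DM library was just below the highest control. These levels were not tested.

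Set beside the primary stage, 30 of the 42 named genes were tested in both, and 20 of these had the same sign. The share of all genes with the same sign is not given here, so this count does not measure agreement between stages. *Tubb2a* and *Neb* also lay apart in the same direction in primary follicles, and *Nfat5* in the opposite direction. *Cdk7* did so in the same direction in CPM but not in raw counts, with 7, 2 and 3 against 381, 5 and 5569. *Snrpa*, which did not pass the filter there, had 0, 0 and 1 counts with DM and 78, 2366 and 2 in controls. Over all 32 gene lists, 552 of 788 genes were tested in primordial follicles, and 12 higher and 19 lower genes (5.62%) had an unadjusted p under 0.05, against 7.33% of all genes. The interaction of stage and DM over 12 libraries gave 0 of 8500 genes with an adjusted p under 0.05 in edgeR, and 1605 with an unadjusted p under 0.05 (18.9%), 13 of them named here. Of the 3838 genes tested in both stages, 212 had an unadjusted p under 0.05 in primordial follicles and 442 in primary follicles. An unadjusted p under 0.05 in both stages was found for 35 genes, 25 of them with the same direction. These 35 were 16.5% of the 212, where 442 of all 3838 genes had such a p in primary follicles. They were 7.92% of the 442, where 212 of all 3838 genes had one in primordial follicles.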

How the data were processed

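RNA of laser-captured oocytes was amplified, prepared with the TruSeq RNA Access kit and sequenced. The authors deposited 1 table of raw counts per gene from featureCounts on mm10, without normalisation. The study's methods name trim_galore and TopHat2, whereas the submitters' processing notes name Trim Galore and STAR. The methods name an Ensembl annotation, with a release number that is not repeated here because it could not be checked. Strand use is not given in the sources used here. The table had 0 columns without a sample.

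Counts were tested with edgeR's quasi-likelihood test (edgeR 4.0.16, R 4.3.3) with filterByExpr, TMM scaling and Benjamini-Hochberg adjustment over all genes tested, in the 6 primordial-follicle libraries. DESeq2 1.42.0 was an alternative. Primary-follicle libraries were fitted separately, and the interaction over all 12. Groups were called apart where the lowest of one exceeded the highest of the other in TMM-normalised CPM. Library-level measures had exact permutation tests (SciPy 1.17.1). The scripts were tested on simulated data.

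Named genes were every gene with an adjusted p under 0.05, in each direction up to 10 protein-coding genes with the smallest p whose groups did not overlap and which had at least 10 counts in every library of the higher group, and up to 3 members of each gene list with an unadjusted p under 0.05 and no overlap. The most abundant member of each list and cell type markers were eligible as counts, and the 10 genes highest per exon length as levels. The comparison, gene lists and other genes named were chosen with earlier results of these data known. The study calls the pools of cut-outs biologically independent, and the labels do not tie them to animals, so p-values measure the spread between these pools. Depth was 15119439 to 38225872 counts per library. Some genes that met these rules are not reported here.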

Additional observations from a re-analysis of the deposited data

How the results depend on the processing

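The count of genes with an adjusted p under 0.05 was 665 with DESeq2 and 0 in edgeR with DESeq2 size factors, library size alone, no filter, a minimum of 10 counts in each library, all 12 libraries, the replicate block or carry-over subtracted (the last chosen after seeing the data). With each library left out it was 0 to 3, and 3 without DM replicate 1 (*Max*, *Neb* and *Pms2*). Genes with an unadjusted p under 0.05, 491 as reported, numbered 1522 with DESeq2, 1742 without the filter, 104 with at least 10 counts in every library, 952 with all 12 libraries, 321 with carry-over subtracted and 539 to 840 with each library left out, most without DM replicate 1. *Pms2* had a log2 fold change of -1.0 without DM replicate 2, and the other 41 named genes never changed direction. Those 41 were chosen because their groups did not overlap, so leaving out a library could hardly reverse them. Their unchanged direction is therefore no sign of stability. Whether the replicate numbers pair the samples is not given in the sources used here. Same-numbered libraries deviated with correlations of 0.027, -0.021 and 0.002, and differently numbered ones with -0.027 to 0.024. With the wide spread between libraries, these values cannot settle whether samples were paired. The replicate block gave 187 genes with an unadjusted p under 0.05 and 0 adjusted. The share of counts in the 10 highest genes differed by 0.2773 percentage points (DM minus control), and by -0.2305 to 0.9144 with each library left out. Genes on in controls and off with DM numbered 26 at a minimum of 50 counts, and up to 339 without control replicate 3, and the reverse 2 and up to 58 without control replicate 1. With each library left out these counts ran from 128 to 339 and from 5 to 58. By library size alone, an alternative added after seeing the data, 138 genes were higher in every DM library, and over both stages 0 were higher and 35 lower. On the TMM scale the counts over both stages were 11 higher and 17 lower, and with each of the 12 libraries left out they ran from 12 to 22 (without primordial DM replicate 1) and from 19 to 39 (without primordial DM replicate 2). In primary follicles DESeq2 called 594 genes. The cause of these changes was not tested. With 3 pooled libraries a group and a median standard error of 2.84, differences of several log2 units were not detectable gene by gene.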
